A study of Rattus norvegicus with 12 samples.

Results

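The genes described here encode the proteins of the cytosolic ribosome, measured as liver transcripts in rats that drank alcohol by choice and in rats that drank water. Members were taken by name: rows of the deposited table whose gene name begins with Rpl, Rps or Rplp and a digit, or with Rpsa, leaving out the Rps6k kinases, with an RPKM above 0 in at least 1 liver. RPKM is a read count divided by transcript length and by the mapped reads of the library. The rule matched 85 of the 34391 rows, 82 of them above 0, and where a gene had several rows the one with the highest mean was kept, which left 75 genes. Another 7 rows above 0, from 6 genes, were set aside in this way, and 3 rows were listed at 0 in all livers.

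The animals were 12 female rats of the inbred alcohol-preferring strain iP10a, a line bred for voluntary drinking. The 6 EtOH animals had, beside tap water, a free choice of 3 ethanol bottles, at 10%, 20% and 30% by volume, over 23 weeks, and the 6 water controls had tap water only; all had food ad libitum. Livers were taken at 38 weeks of age, and at 39 weeks from EtOH animal 6. Each animal gave 1 poly(A) library, and all 12 libraries were sequenced in a single lane. Intake was set by each animal, 1 strain and 1 sex were used, and the tissue was whole liver, in which fewer cells of a type and less RNA per cell cannot be told apart.

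Ribosomal proteins assemble on ribosomal RNA in the nucleolus into a small subunit, which decodes the message, and a large subunit, which forms peptide bonds. A stalk of acidic proteins on the large subunit recruits the translation factors. Hepatocytes, which secrete most plasma proteins, depend on a high rate of protein synthesis. Transcripts of ribosomal proteins belong to the 5′TOP class, which start at a C within a tract of pyrimidines. Through this tract, mTORC1 and its effector Larp1 control their translation as a group.

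Runs of pyrimidines at or near the annotated start were found in the RefSeq promoter sequences (GRCr8) of most of the genes matched. The windows shown here let such runs be compared with a gene that lacks one. Each window holds 30 bases on the coding strand, of which base 16 is the annotated first transcribed base. Capitals mark a run of at least 7 pyrimidines (C or T) that touches the 10 bases on either side of the start. The run of Rps23, of 21 bases, goes on past the end of its window. Rpl10 and Rps18 were the most abundant members of their subunits, Rplp0 is the base of the stalk, Rpl35 and Rps23 have long runs, Rpl28 passed a test described below, and Rpl7l1, which also passed it, has no such run.
Rpl10 (chrX:157205835-157205864, + strand): caggcgtgggagcgTCTCTTTTCCTCTggc
Rps18 (chr20:4933730-4933759, + strand): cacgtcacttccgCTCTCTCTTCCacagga
Rplp0 (chr12:46718376-46718405, - strand): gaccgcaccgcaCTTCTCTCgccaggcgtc
Rpl35 (chr3:43165907-43165936, - strand): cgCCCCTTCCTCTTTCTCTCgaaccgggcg
Rps23 (chr2:23814502-23814531, + strand): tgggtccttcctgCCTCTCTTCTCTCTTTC
Rpl28 (chr1:78083518-78083547, - strand): ccccgcccctagtgTCTTTCTTTCCgtctc
Rpl7l1 (chr9:21695703-21695732, + strand): agctgcagatgcattgtgggaagcctttaa

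Promoters were matched by symbol for 61 of the 75 genes, and 44 of these (72.1%) had such a run, against 19.1% of all 33469 promoters in the table. The median longest run was 9 bases in the ribosomal protein genes and 4 over all promoters. Only the coding strand was searched. A run could lie wholly before the start, as in Rpl21 (19 bases, from base -25), so these are not shares of transcripts that start within a tract. The log2 difference between EtOH and water livers on the quantile-normalized scale (explained below) had a median of -0.059 in the 44 genes with a run and -0.070 in the 17 without.

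Most of the 75 genes were transcribed at a high level. A mean of at least 100 RPKM over the 12 livers was reached by 52, and 69 were above 0 in every liver. By subunit there were 36 large subunit genes, 28 small subunit genes and 2 stalk genes, together 66 of the 79 canonical genes looked for. The others were 7 paralogs or near-named genes and 2 rows named as pseudogenes. Of the canonical genes 12 were not found under their symbol, among them Rplp2, Rpl7a and Rpl13a.

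Of the listed rows 10 stood apart from the rest, because their recovered transcript length matched their genomic span, as in a row without an intron. The match was direct or up to a common factor, since the recovery leaves a factor per transcript open. These were the rows of Rps4x, Rpl6, Rpl10l, Rps29, Rpl35a, Rps4y2, Rpl12, Rpl36, Rpl37a-ps1 and Rpl41. Their mean ran from 0.388 to 67.98 RPKM with a median of 3.61, while the other 65, called rows with introns here, had a median of 215.0 RPKM. For rows of few reads, such as Rpl3l, this class is uncertain, and Rpl32-ps1, named as a pseudogene, is among the 65. Among the genes with a matched promoter, 54 of 54 rows with introns were listed on the chromosome that GRCr8 gives the gene, whereas 6 of 7 rows without introns were listed on another one. The Rps4x row, for example, lies on chromosome 4 and the gene on X. Reads of such rows may be shared with near-identical copies elsewhere in the genome, so their values are uncertain and may not be those of the gene they are named for. The Rpl41 row had a mean of 0.388 RPKM, while a row under the name of its protein (RL41_RAT), outside the rule, had 294.8 RPKM.

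Among genes with introns, the median level was 245.3 RPKM in the small subunit (26 genes) and 200.3 RPKM in the large subunit (31 genes). The 4 most abundant large subunit genes were Rpl10, which joins the subunit late in its assembly, with a mean of 602.9 RPKM, Rpl21 with 501.9, Rpl4 with 400.1 and Rpl7 with 379.3. In the small subunit these were Rps18 with 427.9, Rps3a with 410.7, Rps2 with 383.7 and Rps6, the substrate of the S6 kinases, with 368.3. The stalk genes Rplp0 and Rplp1 had means of 385.8 and 414.8 RPKM. Most proteins of the ribosome are present in equal number, whereas the canonical rows with introns ranged from 9.28 RPKM for Rps14 to 602.9 RPKM for Rpl10. The level of a row may not be the whole level of its gene, since some genes had a further row under a protein name. Rps28, for example, had 64.3 RPKM in its row with introns and 70.8 RPKM in the other (RS28_RAT).

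Together the 75 genes took 2.59 to 3.07% of the summed RPKM in the water livers (median 2.67%) and 2.40 to 2.79% in the EtOH livers (median 2.49%). The share averaged 2.76% ± 0.201 in water and 2.55% ± 0.156 in EtOH livers (SD, n = 6 each). Water animals 3 and 5 were highest with 3.07 and 2.94%, and 4 of the 6 EtOH livers lay below every water liver, while EtOH animals 1 and 6 lay among them. With the 20 most abundant transcripts left out of the sum, none of which is a ribosomal protein gene, the shares were 4.40% ± 0.248 and 4.17% ± 0.201, and 3 EtOH livers lay below every water liver. Those 20 transcripts took 37.4% ± 1.20 of the RPKM in water and 38.9% ± 1.36 in EtOH livers, and albumin alone 12.8% ± 1.81 and 14.97% ± 1.70. The 13 mitochondrially encoded transcripts took 13.5% ± 1.24 and 12.3% ± 0.460. No test was made of shares summed over genes chosen with results known.

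**Figure D1:**
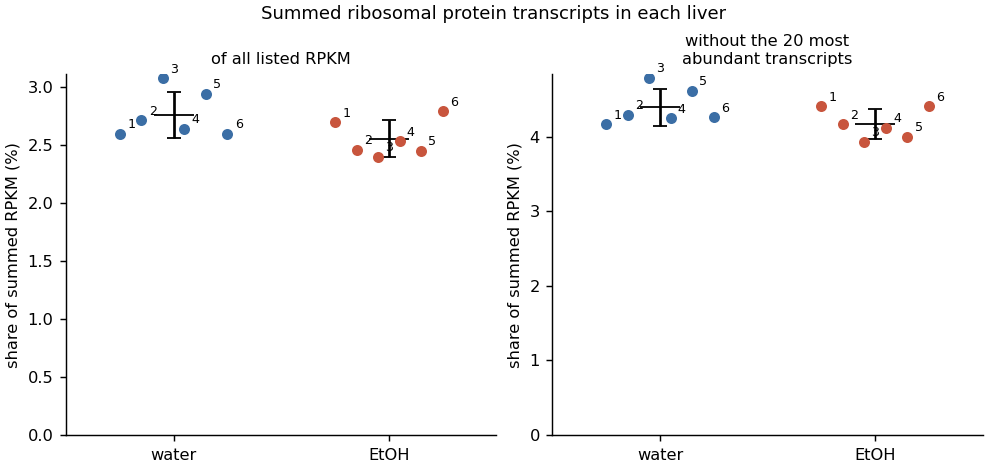
Share of the summed RPKM (percent) taken by the 75 ribosomal protein genes in each liver, left of all listed transcripts and right without the 20 most abundant ones. Points are livers numbered by animal, bars the mean and SD (n = 6); on the left, 4 EtOH livers lie below every water liver and EtOH animals 1 and 6 lie among them.

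The libraries differed in depth along with the group. Relative to the shallowest liver, recovered depth was 1.00 to 1.73 in water livers and 1.85 to 2.83 in EtOH livers, so that all 6 EtOH libraries were deeper than every water library. Depth and group cannot be told apart in this design. Since RPKM is divided by depth, a difference in depth is not in itself a difference in RPKM, but low values are measured with fewer reads in the water livers.

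Liver by liver, the genes were high or low together on the deposited scale. Among the 59 genes with a mean of at least 50 RPKM, water animal 3 held the highest value for 50 and water animal 5 for 8, and the lowest values lay mostly in EtOH animals 2 (17 genes), 3 (17) and 5 (12). In water animal 3, 69 of the 75 genes were above their own mean over the 12 livers, and in EtOH animal 5 only 4 were. EtOH animal 6 lay within the range of the water livers, with 56 genes above their mean. The SD of a gene over the 6 water livers had a median of 0.150 on the log2 scale, and of 0.081 once the shared level of each liver was removed; in EtOH livers these were 0.115 and 0.092.

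Quantile normalization, which gives every liver the same distribution of values, reduced this shared movement in the water livers, and less so in the EtOH livers. The median SD was then 0.095 over water livers and 0.105 over EtOH livers, and 0.081 and 0.090 with the shared level of each liver removed. Water animal 3 held the highest value for 15 of the 59 genes and water animal 5 for 17, and EtOH animal 1 for 12. In water animals 3 and 5, 60 and 58 of the 75 genes were still above their mean, against 15 in EtOH animal 3 and 6 in EtOH animal 5. The groups overlapped in the median deviation of the genes, from -0.026 to 0.097 in water and from -0.106 to 0.051 in EtOH livers.

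**Figure D2:**
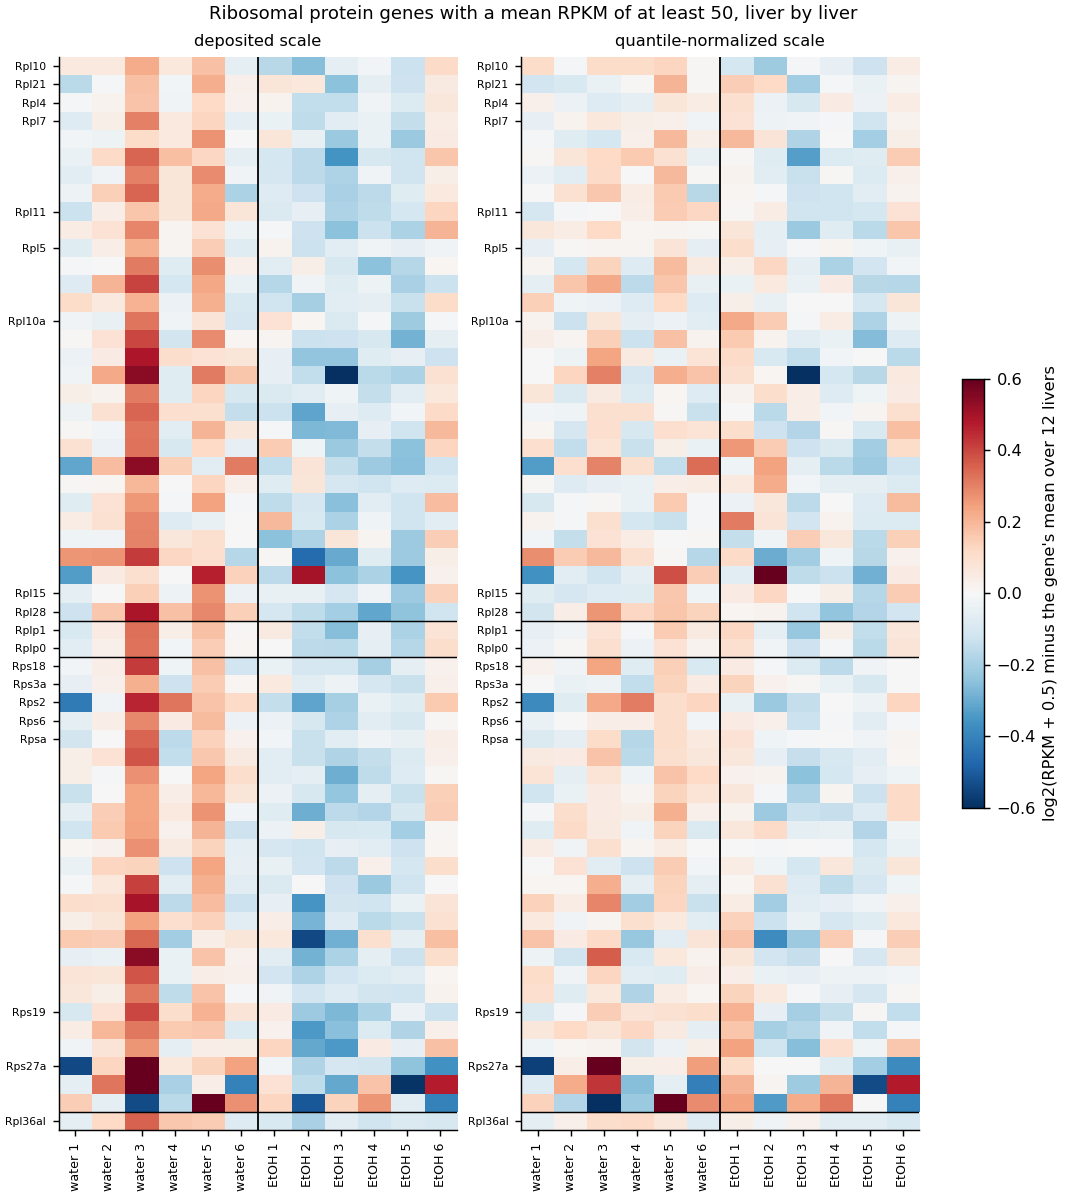
Deviation of log2(RPKM + 0.5) from each gene's mean over 12 livers, for the 59 genes with a mean of at least 50 RPKM (rows, by class and level, labelled for genes that the naming rule chose; lines part the large subunit, stalk, small subunit and Rpl36al), in columns of single livers with water left of the line and EtOH right of it. On the deposited scale the column of water animal 3 is highest for 50 genes, and after quantile normalization for 15.

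The comparison of EtOH with water livers was made on both scales, with limma on log2(RPKM + 0.5) of all 21718 transcripts above 0 in at least 1 liver and Benjamini-Hochberg adjustment over all of them. Fold changes on this scale understate those of genes near 0. On the quantile-normalized scale 1 of the 75 genes (1.33%) was called at an adjusted p below 0.05, and it was lower in EtOH livers; over all transcripts 2.42% were called, 1.29% as lower. By limma none was called higher, against 1.13% of all transcripts, and none was higher at an unadjusted p below 0.05 by limma or by voom. On the deposited scale 3 genes (4.00%) were called, all lower, where 3.56% of all transcripts were called and 2.98% as lower. None was called higher there either, at an adjusted or unadjusted limma p below 0.05, against 0.58% of all transcripts. These shares of members called lie near those of the whole table, which holds many transcripts of low level. With only the 11086 transcripts with a mean of at least 1 RPKM tested, 1148 were called as deposited, among them 3 of the 70 members of that level. After quantile normalization 860 were called there, among them 1 of the 70.

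How many genes lay lower depended on the scale, and 16 were negative as deposited but positive after quantile normalization. As deposited, the log2 difference was negative for 72 of 75 genes with a median of -0.172, and 29 (38.7%) had an unadjusted p below 0.05, against 16.9% of all transcripts. Other abundant transcripts also lay lower on that scale: the median over 982 transcripts outside the set with a mean of at least 50 RPKM was -0.120, and -0.165 over the 59 ribosomal protein genes of that level. On the quantile-normalized scale the median of the 75 was -0.063, 56 were negative and 6 (8%) had an unadjusted p below 0.05, against 15.5% of all transcripts. At a mean of at least 50 RPKM the medians were then -0.047 for the ribosomal protein genes and 0.011 for the others. Scaling by median ratio or to the same summed RPKM gave medians of -0.080 and -0.115 for the 75, with 67 and 72 negative. The standard error of a gene of that level had a median of 0.061 (quantile-normalized) and 0.078 (deposited).

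The differences of both subunits were of similar size. As deposited, 31 of 31 large subunit genes with introns had a negative difference (median -0.165) and 26 of 26 small subunit genes (median -0.177). On the quantile-normalized scale 22 and 20 of them did, with medians of -0.034 and -0.053. The ratio of the mean small to the mean large subunit RPKM was 1.08 ± 0.0225 in water and 1.07 ± 0.0243 in EtOH livers (SD, n = 6 each), with ranges of 1.05 to 1.12 and 1.03 to 1.10 that overlapped.

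Rps4x, a small subunit protein that binds ribosomal RNA, was the gene called on the quantile-normalized scale. Its row, on chromosome 4 from 34793785 to 34794576 as listed, is one of the 10 without an intron and was low. RPKM ran from 3.73 to 6.59 in water livers (median 6.31) and from 2.59 to 4.46 in EtOH livers (median 3.299). Water animal 6 lay among the EtOH livers and the other 5 water livers lay above all of them. The log2 difference was -0.63 (SE 0.151, limma adjusted p = 0.0496) on the quantile-normalized and -0.70 (SE 0.163, adjusted p = 0.0350) on the deposited scale. On either scale the call was lost when any 1 liver other than water animal 6 or EtOH animal 6 was left out (10 of 12 livers), with limma adjusted p of up to 0.107 and 0.0798.

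Rpl28, a large subunit protein without a bacterial counterpart, was called on the deposited scale and not after quantile normalization. Its RPKM ran from 46.2 to 70.9 in water livers (median 56.7) and from 40.4 to 46.9 in EtOH livers (median 44.5). Water animal 1, the lowest of its group, lay below EtOH animals 1 and 6, and the other water livers were above all EtOH livers. The log2 difference was -0.38 (SE 0.0848, limma adjusted p = 0.0300) as deposited and -0.21 (SE 0.0665, adjusted p = 0.136) after quantile normalization. The call was lost without any 1 of 7 livers (water animals 2, 4 and 5 and EtOH animals 2 to 5), with limma adjusted p of up to 0.0655. With livers scaled to the same summed RPKM, Rpl28 was the gene called (-0.32, limma adjusted p = 0.0462), and Rps4x was not (adjusted p = 0.0562).

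Rpl7l1 is a relative of Rpl7 that acts in the assembly of the large subunit. On the deposited scale its log2 difference was -0.43 (SE 0.102, limma adjusted p = 0.0382), from RPKM of 25.5 to 34.3 in water livers (median 31.3) and 18.7 to 27.0 in EtOH livers (median 21.6). EtOH animals 3 and 6 lay above water animal 6, the lowest of the controls. After quantile normalization the difference was -0.27 (SE 0.0938, adjusted p = 0.164). The call held only without EtOH animal 3, EtOH animal 6 or water animal 6, and was lost without any 1 of the other 9 livers (limma adjusted p of up to 0.0833).

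**Figure D3:**
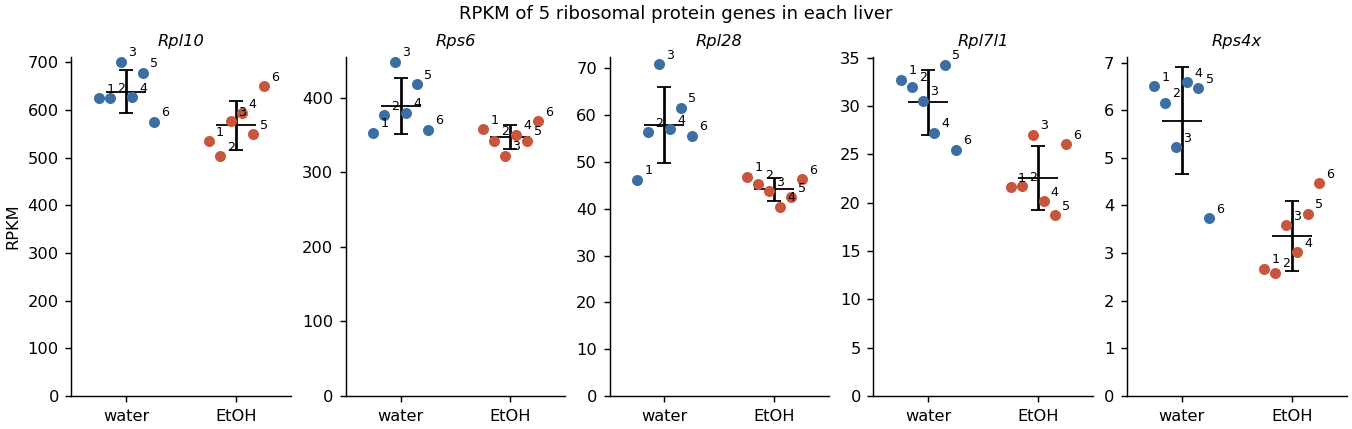
RPKM as deposited (linear axis from 0) of 2 abundant genes, Rpl10 and Rps6, and of the 3 genes called on at least 1 scale, Rpl28, Rpl7l1 and Rps4x. Points are livers numbered by animal, bars the mean and SD (n = 6); the groups overlap in all 5 genes.

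A single gene had RPKM values that did not overlap between groups as deposited, where 2.43% of all transcripts were lower and 0.677% higher in this way. It was Rpl18, a large subunit protein, named here after its values were seen, with 190.4 to 272.9 RPKM in water and 165.4 to 188.2 RPKM in EtOH livers. Its limma adjusted p was 0.103, and after quantile normalization the groups overlapped for all 75 genes, where 1.26% of all transcripts were lower and 1.33% higher without overlap.

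The abundant genes did not pass on either scale. Rpl10 ranged from 575.5 to 700.7 RPKM (median 625.8) in water and from 502.8 to 649.4 (median 562.6) in EtOH livers, with log2 differences of -0.17 as deposited and -0.15 after quantile normalization (SE 0.0488, limma adjusted p = 0.133). Rps6 ranged from 353.4 to 448.4 RPKM in water and from 322.1 to 368.8 in EtOH livers, with differences of -0.16 and -0.04. Rpl21, Rpl4, Rpl7, Rps18, Rps3a and Rps2 had differences between -0.21 and -0.08 as deposited and between -0.10 and 0.01 after quantile normalization, with adjusted p of at least 0.347 and 0.649 by limma.

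Genes with known further roles did not pass either. Rplp0 and Rplp1 of the stalk had log2 differences of -0.15 and -0.17 as deposited and of -0.05 and -0.07 after quantile normalization. Rpl5 and Rpl11, which with 5S RNA bind Mdm2 and so link ribosome assembly to p53, had -0.09 and -0.15 as deposited and -0.002 and -0.07 after quantile normalization. Rpsa, also known as the laminin receptor, had -0.08 and 0.02. Rps19, whose human counterpart is mutated in Diamond-Blackfan anaemia, had -0.26 as deposited (limma adjusted p = 0.0968) and -0.11 after quantile normalization (adjusted p = 0.499).

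Rps27a, which encodes a small subunit protein fused to ubiquitin, was the most variable of the abundant genes in water livers, with a coefficient of variation of 36.6% against a median of 10.7% over the 59 genes. Its RPKM ran from 78.6 in water animal 1 to 228.7 in water animal 3, and from 89.0 to 113.4 in EtOH livers. The log2 difference was -0.34 as deposited and -0.18 after quantile normalization (SE 0.169, limma adjusted p = 0.649). With each liver left out the latter ran from -0.313 (without water animal 1) to -0.052 (without water animal 3). Over the 59 genes the coefficient of variation was larger in water livers for 43.

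The largest differences lay among rows of low level. With a mean of at least 1 RPKM, the lowest were Rpl10l, a copy of Rpl10 known from testis, at -0.97 (SE 0.490), Rps4x at -0.63 and Rps29 at -0.39 (SE 0.366), all rows without introns. Rpl10l had 1.07 to 8.75 RPKM in water and 0 to 2.47 in EtOH livers, and Rps29 had 2.19 to 8.48 and 1.45 to 6.07, so the groups overlapped widely for both. Rps29 ran, over livers left out in turn, from -0.623 (without water animal 1) to -0.157 (without EtOH animal 2). The highest after quantile normalization were Rpl22l1, a paralog of Rpl22, at 0.23 (SE 0.189), Rpl10a at 0.07 and Rpl15 at 0.06, none of which passed (limma adjusted p of at least 0.647). Rpl22l1 ran, over livers left out in turn, from 0.083 (without water animal 4) to 0.318 (without water animal 3). Of these 3, Rpl10a and Rpl15 were at -0.07 and -0.10 on the deposited scale.

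Of the other paralogs, Rpl36al was transcribed at 140.8 RPKM, above Rpl36a itself at 91.1, with differences of -0.22 as deposited (limma adjusted p = 0.102) and -0.06 after quantile normalization. The remaining ones were close to 0. Rps4y2 had a median of 0.487 RPKM in water and 0.222 in EtOH livers, and Rpl3l, the form of Rpl3 found in striated muscle, was listed above 0 in water animal 2 only, at 0.322 RPKM. Rps19bp1, which binds Rps19 and is not itself a ribosomal protein, had medians of 1.57 and 1.44 RPKM.

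**Figure D4:**
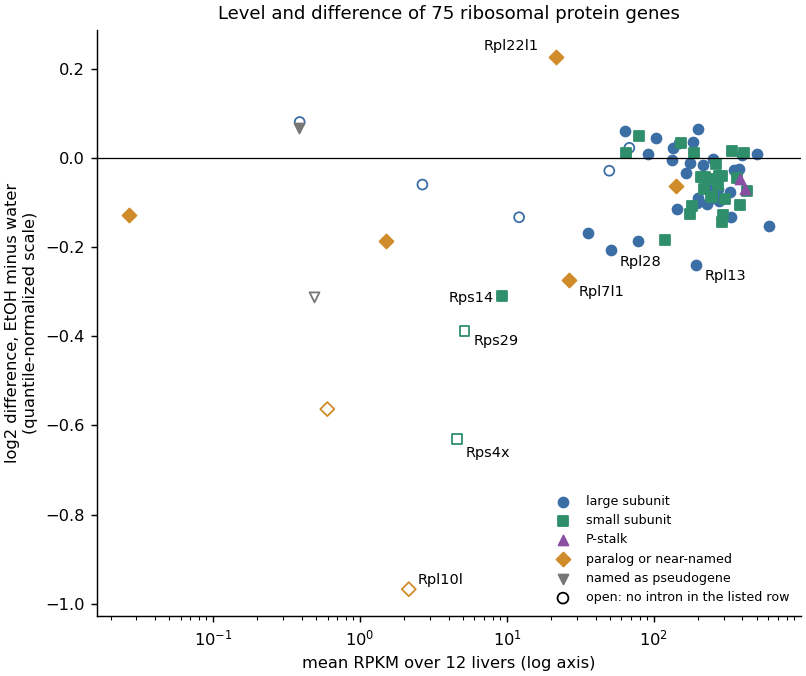
Log2 difference between EtOH and water livers on the quantile-normalized scale (vertical) against mean RPKM over 12 livers (horizontal, log axis) for the 75 genes, with symbols by class and open symbols for the 10 rows without introns. Genes of high level lie close to 0, between -0.24 for Rpl13 and 0.07 for Rpl10a among the 59 with a mean of at least 50 RPKM, and the spread is wider at low level.

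Genes that build the ribosome, rather than form part of it, were measured beside these. A list of 82 factors of ribosomal RNA synthesis and ribosome assembly had 69 genes above 0. On the deposited scale 16 of them (23.2%) were lower in EtOH livers, against 2.98% of all transcripts, and on the quantile-normalized scale 7 (10.1%), against 1.29%. Those 7 were among the 16, and none was higher on either scale. The median log2 difference was -0.37 as deposited and -0.32 after quantile normalization, with 65 and 60 of 69 negative, and RPKM did not overlap between groups for 8, all lower in EtOH livers, where 2.43% of all transcripts were lower in this way. With each liver left out in turn, 6 (without EtOH animal 2) to 24 genes (without water animal 6) were called on the deposited scale, and 1 (without EtOH animal 4 or 5) to 10 (without water animal 6) on the quantile-normalized scale. Apart from Taf1b, all of the list had a mean of at least 1 RPKM, while the whole table holds many transcripts of lower level. Of the 11086 transcripts of that level, tested alone, 1148 were called in either direction as deposited and 860 after quantile normalization. The list was not counted under that filter. A difference between this list and the ribosomal protein genes was not tested.

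Mphosph10, a component of the U3 particle that cleaves the ribosomal RNA precursor, had the smallest p of the list. It had 7.90 to 10.3 RPKM in water and 5.29 to 6.37 RPKM in EtOH livers, with no overlap. The log2 difference was -0.48 after quantile normalization (SE 0.0805, limma adjusted p = 0.0119). The other 6 called on both scales, named here because they passed, were Mybbp1a, Imp4, Bop1, Ddx56, Nop56 and Gar1. Nop56 and Gar1 are core proteins of the particles that modify ribosomal RNA, and Bop1 acts in large subunit assembly. Promoters of the assembly list held the pyrimidine run in 14.5% of 76 cases, below the 19.1% of all promoters.

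Other 5′TOP transcripts mostly encode translation factors. Of 16 tested, none was called on the deposited scale, and 3 had an unadjusted limma p below 0.05, against 16.9% of all transcripts. On the quantile-normalized scale 1 was called higher, against 1.13% of all transcripts. It was Eif4b, which helps unwind the 5′ ends of messages, with 58.1 to 68.3 RPKM in water and 65.6 to 74.6 in EtOH livers and a log2 difference of 0.35 after quantile normalization (SE 0.0417, adjusted p = 0.00189) and 0.19 as deposited (adjusted p = 0.0693). The list had medians of -0.06 as deposited and 0.06 after quantile normalization.

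Of 13 tested regulators of ribosomal protein synthesis, such as mTOR, Larp1 and Myc, none was called after quantile normalization. There 4 had an unadjusted limma p below 0.05, against 15.5% of all transcripts. On the deposited scale 1 was called lower, against 2.98% of all transcripts. This was Eif4ebp1, a repressor of initiation downstream of mTORC1, named here after its values were seen, with a difference of -0.60 as deposited (adjusted p = 0.0395) and -0.45 after quantile normalization (adjusted p = 0.0978). Without any 1 of 8 livers (water animals 1, 2, 3 and 5 and EtOH animals 1 to 4) no regulator was called as deposited. Tsc1, an inhibitor of mTORC1, had the smallest p after quantile normalization, with a difference of 0.41 (SE 0.116, adjusted p = 0.0888).

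**Figure D5:**
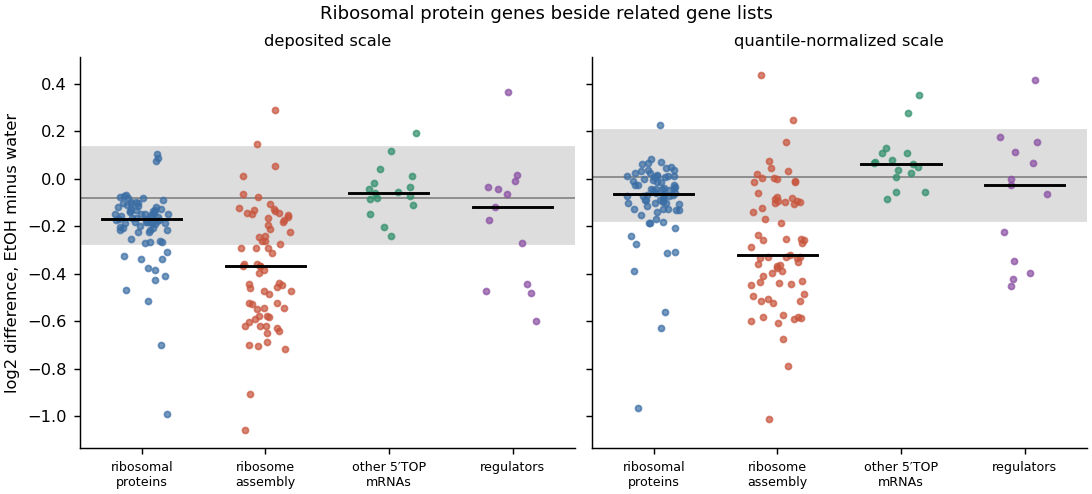
Log2 difference between EtOH and water livers of single genes (points) with the median of each list (black lines), on the deposited scale (left) and the quantile-normalized scale (right). The grey band runs from the lower to the upper quartile of all transcripts with a mean of at least 1 RPKM and the grey line their median; the assembly list has medians of -0.37 and -0.32, and the 75 ribosomal protein genes -0.17 and -0.06.

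Markers of liver cell types were measured beside these results. The 9 hepatocyte markers summed to 88950 to 117200 RPKM in water and 98760 to 124700 RPKM in EtOH livers. As deposited 4 of the 9 had a negative difference, with a median of 0.14 over the list, and after quantile normalization the median was 0.005. The quantile step itself set the very abundant Alb and Tf equal between groups. By median ratio and by summed RPKM the medians were 0.236 and 0.201, with 2 of the 9 called higher on each. On the deposited and quantile-normalized scales only 1 of the 9, the urea cycle enzyme Cps1, was called higher (0.58 after quantile normalization, limma adjusted p = 0.0225). After quantile normalization no hepatocyte marker was called without EtOH animal 2, 3 or 5 or water animal 2. Of other types, positive differences on both scales were found for 7 of 7 Kupffer cell, 7 of 7 stellate cell, 4 of 4 endothelial, 8 of 9 lymphocyte, 3 of 3 erythroid and 3 of 3 cycling cell markers, and for 2 of 4 cholangiocyte markers. Over all transcripts the difference was negative for 53.3% as deposited and for 49.96% after quantile normalization. Summed levels overlapped between groups for Kupffer cells (142.6 to 218.4 RPKM in water and 191.7 to 234.6 in EtOH livers), stellate cells (24.6 to 34.5 and 31.3 to 50.7), endothelial cells (24.8 to 32.2 and 28.5 to 39.6), lymphocytes (8.81 to 15.4 and 9.29 to 17.5), cholangiocytes (4.37 to 8.27 and 3.90 to 7.87), erythroid cells (145.1 to 298.6 and 168.2 to 323.2) and cycling cells (0.432 to 1.53 and 1.12 to 7.54). After quantile normalization 1 to 2 markers of each of these types except cholangiocytes and erythroid cells rose, led by Clec4f (0.48, limma adjusted p = 0.0246), Col3a1 (0.44, adjusted p = 0.0393), Cdh5 (0.46, adjusted p = 0.0490), Cd79a (0.82, adjusted p = 0.0393, at 0 in all water livers) and Ccnb1 (1.52, adjusted p = 0.0340). Of all transcripts 1.13% were called higher on that scale. As deposited Clec4f, Col3a1 and Cdh5 did not pass (limma adjusted p of 0.0898, 0.104 and 0.0851). Cd79a and Ccnb1 passed there (limma adjusted p of 0.0290 and 0.0242), where 0.58% of all transcripts were called higher. So did the stellate cell marker Dcn (1.20, adjusted p = 0.0446), which did not pass after quantile normalization (1.24, adjusted p = 0.0517). On the deposited scale no marker of the type was called without any 1 of 9 livers for stellate cells, 7 for lymphocytes and 4 for cycling cells. After quantile normalization no marker of the type was called without any 1 of 5 livers for Kupffer cells (EtOH animals 1, 3, 4 and 5 and water animal 4), 9 for stellate cells (all but EtOH animal 6 and water animals 1 and 6), 11 for endothelial cells (all but water animal 6), 11 for lymphocytes (all but EtOH animal 4) and 7 for cycling cells (EtOH animals 2, 3 and 5 and water animals 2 to 5). The part of these markers in the level of the ribosomal protein genes was not tested.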

How the data were processed

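Hepatic poly(A) RNA of 6 EtOH and 6 water animals was sequenced in 101-nucleotide paired-end reads. The authors mapped these with CLCbio Genomics Workbench 4.9 and deposited RPKM values per liver, with neither the square-root nor the quantile step that the methods name. No source used here names the genome build, and positions are as listed. Columns holding the authors' own group comparison (fold changes, a statistic, p values and FDR) were not used.

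RPKM values were compared on log2(RPKM + 0.5) with R 4.3.3 and limma 3.58.1 (mean-variance trend, all 21718 transcripts above 0 in a liver, Benjamini-Hochberg, threshold 0.05), after quantile normalization and on the deposited scale. Other steps used Python 3.11.15, numpy 2.4.6 and pandas 2.3.3. RPKM ratios of each transcript were matched to whole reads within 0.01 of a read. This gave relative depth, transcript length, compared with the genomic span to find rows without introns, and the smallest whole reads for voom. A common factor per transcript is not fixed by this, so absolute depth is not given. The limma fits were tested on simulated data.

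Genes named are those called on either scale, the 4 most abundant of each subunit, the 3 largest rises and falls at a mean of at least 1 RPKM, the paralogs, 8 genes of known role and the gene of smallest p in each list. Lists were ribosome assembly, other 5′TOP, regulators and cell type markers, with names matched directly or by older symbols in RefSeq (GRCr8). Members and lists were chosen with earlier results of these data known. A list of mitochondrially encoded genes matched no symbol, and its 13 rows were found under protein names. Some results are not reported here. Replicates are separate animals. Alternatives were other pseudocounts, filters, scalings, tests and rows, the animal number as a block, and each liver left out.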

Additional observations from a re-analysis of the deposited data

Results flagged for a closer look

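Over the 75 genes and 6 summary measures of each liver, 161 sets of 6 livers with any spread were screened, and 13 held a liver set apart from the others by more than 0.625 of the whole range (Dixon's criterion), where chance gives about 5%. Of the abundant genes, 5 were set apart by water animal 3, the liver with the largest share of ribosomal protein transcripts. They were Rpl18 (272.9 RPKM, others 190.4 to 209.7), Rps3 (271.1, others 203.3 to 220.3), Rpl14 (310.2, others 247.9 to 269.1), Rps15 (314.4, others 208.6 to 243.1) and Rpl36a (111.4, others 88.9 to 96.8). EtOH animal 2 stood above the other EtOH livers for Rpl26 (140.8 RPKM, others 123.2 to 127.5), Rpl8 (148.9, others 118.6 to 129.6) and the Rpl36 row without introns (94.47, others 52.2 to 67.97).

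The other 5 were rows of low level. Water animal 2 stood apart for Rpl10l (8.752 RPKM, others 1.07 to 2.75), and for Rpl3l (0.3215 RPKM) and Rpl41 (2.875 RPKM), which were listed at 0 in the other water livers. Water animal 1 stood apart for Rpl12 (5.626 RPKM, others 1.19 to 2.80). EtOH animal 6 stood apart for Rps4y2 (1.419 RPKM, others 0 to 0.244).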

How the results depend on the processing

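The median log2 difference of the 75 genes stayed negative under every scaling run. It was -0.063 after quantile normalization, -0.172 with no step between livers, -0.080 by median ratio or by summed RPKM without the 20 most abundant transcripts, and -0.115 by summed RPKM. With each liver left out it ran from -0.079 to -0.047 (from -0.202 without EtOH animal 6 to -0.131 without water animal 3 on the deposited scale). The share of summed RPKM differed by -0.204 percentage points, by -0.251 to -0.141 with each liver left out.

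Calls were few and depended on the setting. The 1 call after quantile normalization became 3 with no step between livers, and 0 by median ratio scaling, by summed RPKM without the most abundant transcripts, without a trend, with a pseudocount of 1, in a pooled-error test on square roots, in voom on recovered reads, and when rows without introns were left out (the last and voom on the deposited scale were chosen after seeing the data). Leaving out the rows without introns could only give 0 after quantile normalization, since Rps4x, the gene called, is one of them. The 3 calls on the deposited scale became 2 without those rows, 1 without a trend or in voom, and 0 on square roots. Scaling to the same summed RPKM called 1 gene, Rpl28 in place of Rps4x. With each liver left out 0 to 1 genes were called after quantile normalization and 0 to 7 as deposited. On the deposited scale the 7 without water animal 6 were Rpl17, Rpl28, Rpl36al, Rpl6, Rpl7l1, Rps13 and Rps4x, and 0 were called without water animals 2, 4 or 5 or EtOH animals 2, 4 or 5. With the animal number as a block, 0 genes were called on both scales; correlations of same-numbered animals of -0.067 to 0.032 after quantile normalization, with 1 of 6 closest to its own number, gave no ground for pairing.

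Signs near 0 changed with the scaling. With no step between livers the differences were -0.080 for Rpl21, -0.103 for Rpl4, -0.079 for Rps3a, -0.071 for Rpl10a, -0.098 for Rpl15 and -0.081 for Rpsa. By summed RPKM they were -0.023, -0.045, -0.021, -0.013, -0.041 and -0.024. By median ratio, and by summed RPKM without the most abundant transcripts, they were -0.010 for Rpl4, -0.006 for Rpl15 and 0.003 for Rpl5, and in voom -0.068 for Rpl4 and 0.055 for Rpl5. With each liver left out the range was -0.020 to 0.051 for Rpl21, -0.010 to 0.028 for Rpl4, -0.023 to 0.012 for Rpl5, -0.017 to 0.039 for Rps3a and -0.020 to 0.039 for Rpsa. The cause of these changes was not tested.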

Other observations

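Further ribosomal protein rows were listed under protein names rather than gene symbols. The row of the Rpl7a protein (RL7A_RAT) had 360.4 ± 27.1 RPKM in water and 321.7 ± 12.8 RPKM in EtOH livers (SD, n = 6 each), and its log2 difference was -0.16 as deposited (limma adjusted p = 0.143) and -0.05 after quantile normalization. A second row for Rpl8 (RL8_RAT) had 28.3 ± 5.10 and 19.0 ± 3.62 RPKM and was lower on the deposited scale (-0.57, limma adjusted p = 0.0432) but did not pass after quantile normalization (-0.41, adjusted p = 0.110). These rows were looked at after the members had been chosen.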
